A study of Mus musculus with 24 samples.

Results

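The 9 genes described here encode BCL2 family proteins and initiator caspases outside the p53 target genes: Bcl2, Bcl2l1, Mcl1, Bcl2l11, Bid, Bad, Bak1, Casp8 and Casp9. They were chosen by gene symbol, and each symbol matched 1 of the 49315 genes in the count tables. RNA was sequenced from primary astrocytes taken from the brain cortex of wild-type C57BL/6J mouse embryos late in gestation. The cultures were exposed to X-rays at 0.1 or 2 Gy or were mock-irradiated (0 Gy), and were harvested after 6 or 24 h, with 4 libraries in each of the 6 groups and 24 in all. No group carried a transgene or a deletion, and all embryos of a pregnant mouse were pooled, so that a library stands for a pooled culture and not for an animal.

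BCL2 family proteins control the permeability of the outer mitochondrial membrane. Prosurvival members hold the effectors BAX and BAK in check, BH3-only members bind the prosurvival members or engage the effectors directly, and cytochrome c released through effector pores activates caspase-9 on the apoptosome. Caspase-8 is activated at death receptors and joins this pathway by cleaving BID. Much of this control works through protein binding, phosphorylation and cleavage, which a count of mRNA does not measure.

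On GRCm38 the prosurvival genes were Bcl2 (ENSMUSG00000057329, chr1:106538178-106714274, minus strand), Bcl2l1 (ENSMUSG00000007659, chr2:152780668-152831728, minus) and Mcl1 (ENSMUSG00000038612, chr3:95658788-95663176, plus). The BH3-only genes were Bcl2l11 (ENSMUSG00000027381, chr2:128126038-128162547, plus), Bid (ENSMUSG00000004446, chr6:120891930-120916853, minus) and Bad (ENSMUSG00000024959, chr19:6941861-6951898, plus). The effector gene was Bak1 (ENSMUSG00000057789, chr17:27019810-27029009, minus), and the caspase genes were Casp8 (ENSMUSG00000026029, chr1:58795374-58847503, plus) and Casp9 (ENSMUSG00000028914, chr4:141793612-141815976, plus). Counts cover the exons of each gene, 2007 bases for Bad up to 9157 for Bcl2, and all 9 passed the filter on low counts in every comparison.

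Each library held between 14742855 and 38194800 counts. All 10 astrocyte markers were detected in every library, at a summed level of 2350 to 3410 CPM (counts scaled to a common library size). Of the markers of other cell types, the 12 of microglia summed to 314 to 363 CPM in replicate 2 of every group and to 1790 to 2930 CPM in all other libraries, and none of the 12 was at 0. Neuron markers summed to 407 to 732 CPM, mostly through Map2 (105 to 424 CPM), Stmn2 (181 to 322 CPM) and Tubb3 (35.1 to 123 CPM). Rbfox3, Nefl and Slc17a7 stayed below 1 CPM, and Snap25 and Dcx reached at most 1.26 and 1.3 CPM. Oligodendrocyte lineage markers summed to 409 to 897 CPM, with Mog below 1 CPM, and fibroblast and vessel markers summed to 3530 to 7840 CPM. Acta2 alone held 2930 to 7360 CPM of that sum, while Lum and Cldn5 stayed below 1 CPM and Pecam1 and Dcn reached at most 1.47 and 4.34 CPM. At 24 h the deviation of genes from their group mean correlated with GC content, in opposite directions in replicates 3 and 1. Taken across genes, none of which is an independent replicate, the r for replicate 3 was 0.531, 0.348 and 0.346 after 0, 0.1 and 2 Gy, and for replicate 1 it was -0.376, -0.387 and -0.256. At 6 h this r ran from -0.263 (replicate 3 after 0 Gy) to 0.25 (replicate 1 after 2 Gy). In bulk RNA, fewer cells of a type and less RNA per cell cannot be told apart.

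Of the prosurvival genes, Mcl1, which encodes a short-lived protein that binds BAK, stood highest. Per kilobase of exon it averaged 70.9 ± 6.48 CPM per kb (SD, n = 4) in mock-irradiated cells at 6 h, and it lay above the next gene without overlap in all 6 groups. Bcl2l1, which encodes BCL-XL, followed at 38.7 ± 3.66 CPM per kb, and the effector gene Bak1 came next at 32 ± 3.0 CPM per kb, with libraries of the pair overlapping. Casp8 averaged 13.99 ± 2.44 CPM per kb and Bad 9.56 ± 1.62 CPM per kb, again with overlap. After 0.1 and 2 Gy at 6 h neither of these pairs overlapped.

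Bcl2, the founding prosurvival member, was far lower on this scale, at 4.98 ± 0.141 CPM per kb. Bid followed at 4.62 ± 1.22, Casp9 at 3.35 ± 0.435 and Bcl2l11, which encodes BIM, at 2.49 ± 0.357 CPM per kb. Each of these neighbours overlapped the next across libraries. Within every mock-irradiated 6 h library, however, Bid lay above Casp9 and Casp9 above Bcl2l11, while Bcl2 lay above Bid in replicate 2 alone. This order was not tested. Mcl1 stood 14.2 ± 1.09 times above Bcl2 in mock-irradiated cells at 6 h and 10.7 ± 3.14 times above it at 24 h.

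**Figure D1:**
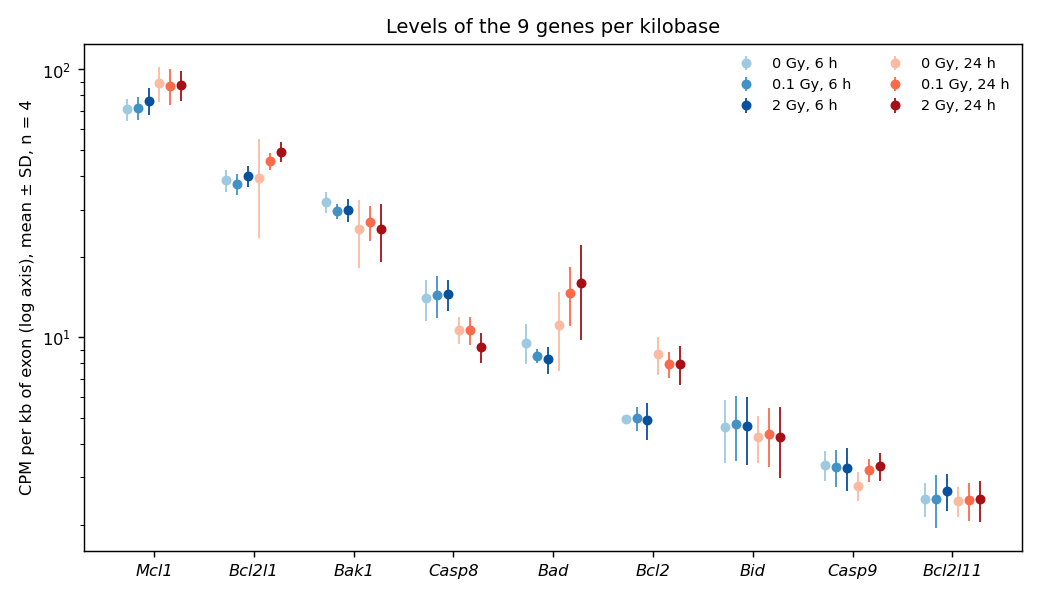
The mean level of each gene in CPM per kb of exon (log axis) with its SD over 4 libraries is plotted for the 6 dose and time groups. Mcl1 is highest in every group, and at 24 h Bad (15.9 CPM per kb after 2 Gy) lies above Casp8 (9.20 CPM per kb).

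The order changed in 1 place between the times. At 24 h Bad ranked above Casp8 in all 3 dose groups, and the pair did not overlap in the 2 Gy group, where Bad reached 15.9 ± 6.12 and Casp8 9.20 ± 1.21 CPM per kb. Bcl2 no longer overlapped Bid at 24 h at any dose. The ratio of Casp8 to Casp9, both per kb, was 4.18 ± 0.432, 4.42 ± 0.753 and 4.47 ± 0.287 at 6 h and 3.86 ± 0.533, 3.32 ± 0.152 and 2.78 ± 0.189 at 24 h, after 0, 0.1 and 2 Gy.

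Sequences upstream of the start site are shown for the 3 genes that passed the test of time, Bcl2, Bad and Casp8, to set genes that moved in opposite directions side by side. They are the 250 bases before a RefSeq start site, with windows that overlap an exon left out, on the strand of the gene, in GRCm38: chr1:106714291-106714540 on the minus strand for Bcl2, chr19:6941611-6941860 on the plus strand for Bad and chr1:58802252-58802501 on the plus strand for Casp8. The Casp8 start site lies 7128 bases inside the gene as the count tables delimit it. Capitals mark, on either strand, the GC box (GGGCGG), the CCAAT box (CCAAT), the TATA box (TATAAA) and the E box (CACGTG), and no marked matches overlap.
Bcl2: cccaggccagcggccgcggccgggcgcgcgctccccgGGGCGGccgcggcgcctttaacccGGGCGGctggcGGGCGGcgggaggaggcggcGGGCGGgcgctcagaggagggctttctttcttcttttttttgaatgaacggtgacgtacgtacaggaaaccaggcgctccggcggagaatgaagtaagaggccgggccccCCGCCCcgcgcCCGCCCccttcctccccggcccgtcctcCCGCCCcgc
Bad: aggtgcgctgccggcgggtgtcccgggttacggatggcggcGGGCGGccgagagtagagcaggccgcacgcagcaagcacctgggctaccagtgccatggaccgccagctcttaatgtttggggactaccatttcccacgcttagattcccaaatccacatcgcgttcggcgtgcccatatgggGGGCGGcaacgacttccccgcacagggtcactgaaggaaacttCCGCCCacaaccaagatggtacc
Casp8: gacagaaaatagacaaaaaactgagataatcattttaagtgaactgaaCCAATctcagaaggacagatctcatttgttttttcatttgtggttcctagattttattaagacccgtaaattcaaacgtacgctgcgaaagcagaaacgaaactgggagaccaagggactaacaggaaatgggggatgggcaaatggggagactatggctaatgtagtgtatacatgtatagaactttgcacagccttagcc

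The Bcl2 window held 7 GC boxes and had a GC content of 74.8%, the Bad window held 3 GC boxes at 62.8%, and the Casp8 window held no GC box and 1 CCAAT box at 39.6%. Bad has a second RefSeq start site, whose window (chr19:6942312-6942561) overlaps exons and held no GC box and 1 CCAAT box at 64.8%, the same counts of these motifs as for Casp8. None of the 3 windows held a TATA box or an E box as spelled. Among 32851 windows of the same length, 32.7% held a GC box, 33.8% a CCAAT box, 12.4% a TATA box and 6.02% an E box. The p53 half-site motif was found in 7.13% of these windows and in 0 of the 13 windows of the 9 genes. A match here is a run of letters and says nothing of whether a factor was bound.

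The first question was how the 9 genes differed between 6 and 24 h at each dose. Bcl2 rose at every dose, Bad rose after 0.1 Gy, and Casp8 fell after 2 Gy. In edgeR's quasi-likelihood test on the 8 libraries of each pair of groups, with Benjamini-Hochberg adjustment over all genes tested and a call at an adjusted p below 0.05, 1 of 9 genes was called at 0 Gy, 2 of 9 at 0.1 Gy and 2 of 9 at 2 Gy. Over all genes tested, 6.7% were called at 0 Gy, 9.9% at 0.1 Gy and 6.95% at 2 Gy. Groups of libraries did not overlap for 1, 2 and 4 of the 9 genes, against 15.3%, 19.0% and 18.1% of all genes. The median log2 difference of the 9 genes was -0.04, -0.04 and 0.01, close to the medians of all genes of -0.02, -0.01 and 0.00.

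**Figure D2:**
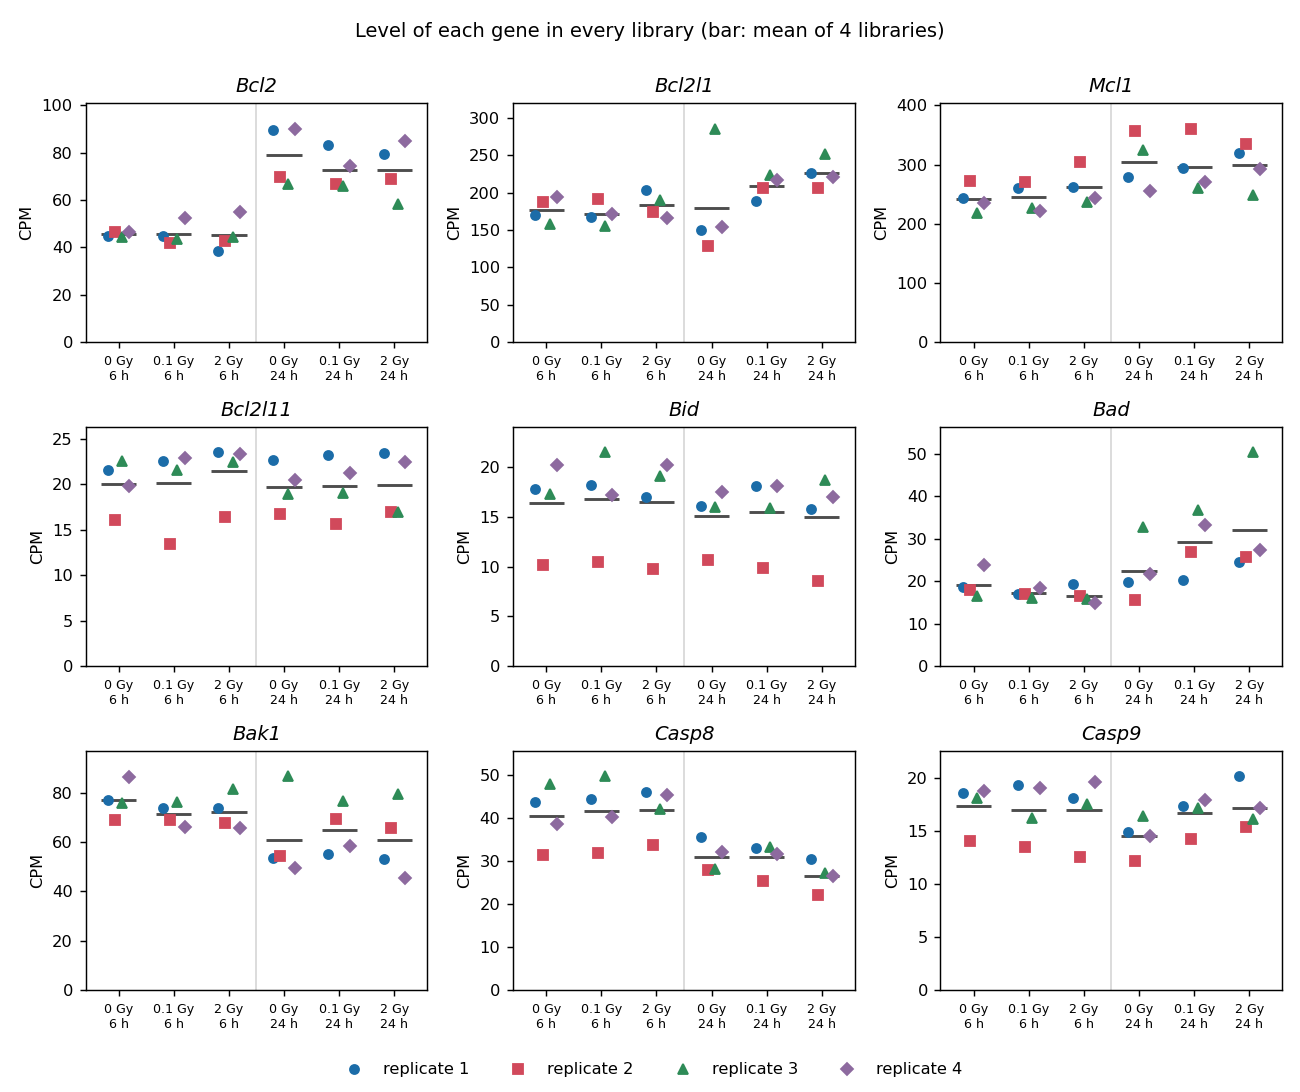
Each panel plots 1 gene in CPM for the 24 libraries, with the 6 dose and time groups along the horizontal axis, a bar at the mean of 4 libraries and a symbol for each replicate number. All Bcl2 libraries at 24 h (58.2 to 90.3 CPM) lie above all those at 6 h (38.4 to 55.0 CPM), and replicate 2 is the lowest point for Bid, Casp8 and Casp9 in every group.

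Bcl2, whose protein sits on mitochondria and the endoplasmic reticulum, showed 44.7, 46.6, 44.2 and 46.7 CPM in the 4 mock-irradiated libraries at 6 h (replicates 1 to 4 in order, as in all lists of 4 values here). At 24 h the mock-irradiated libraries held 89.7, 69.8, 66.7 and 90.3 CPM. The groups did not overlap, and the log2 difference was 0.78 (95% confidence interval 0.47 to 1.10, adjusted p = 0.0162 by edgeR).

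After 0.1 Gy, Bcl2 held 44.9, 41.9, 43.4 and 52.3 CPM at 6 h and 83.5, 66.8, 66.1 and 74.5 CPM at 24 h. After 2 Gy it held 38.4, 42.7, 44.3 and 55.0 CPM at 6 h and 79.5, 69.0, 58.2 and 84.8 CPM at 24 h. Every 24 h library thus lay above every 6 h library at both doses. The log2 differences were 0.65 (0.38 to 0.93, adjusted p = 0.0141 by edgeR) and 0.68 (0.30 to 1.06, adjusted p = 0.0453 by edgeR).

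The size of the Bcl2 difference held when single libraries were left out, with log2 differences of 0.73 to 0.87 at 0 Gy, but its call did not always hold. It was lost at 0 Gy without replicate 1 or 3 at 6 h or replicate 1 or 4 at 24 h. It was lost at 0.1 Gy without replicate 1 at 6 h or replicate 4 at 24 h, and at 2 Gy without any single library other than replicate 3 at 24 h or with no filter on low counts. Over all alternatives the adjusted p of edgeR, DESeq2 or limma ranged from 0.000154 to 0.0698 at 0 Gy, from 1.17e-05 to 0.0524 at 0.1 Gy and from 0.000917 to 0.134 at 2 Gy. A fit with a replicate block and a correction for GC content and length gave a smaller log2 difference of 0.59 at 0 Gy. It gave 0.71 at 0.1 Gy and 0.76 at 2 Gy, and called Bcl2 at every dose. Exons of the antisense gene D630008O14Rik share 558 bases with those of Bcl2. Whether the counts separated reads there by strand is not known, but D630008O14Rik itself was counted at no more than 0.0575 CPM in any library.

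Among dose groups at the same time, Bcl2 libraries overlapped throughout. Group means at 6 h were 45.6 ± 1.29, 45.6 ± 4.62 and 45.1 ± 7.07 CPM after 0, 0.1 and 2 Gy, and those at 24 h were 79.1 ± 12.6, 72.7 ± 8.13 and 72.9 ± 11.8 CPM. At 24 h Bcl2 was lower in 4 of 4 replicate pairs after 0.1 Gy and after 2 Gy, by less than the spread between libraries (log2 differences of -0.14 and -0.11). The direction turned to 0.06 and 0.09 in the fit with a replicate block, which compares libraries of 1 number with each other, and a correction for GC content and length.

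**Figure D3:**
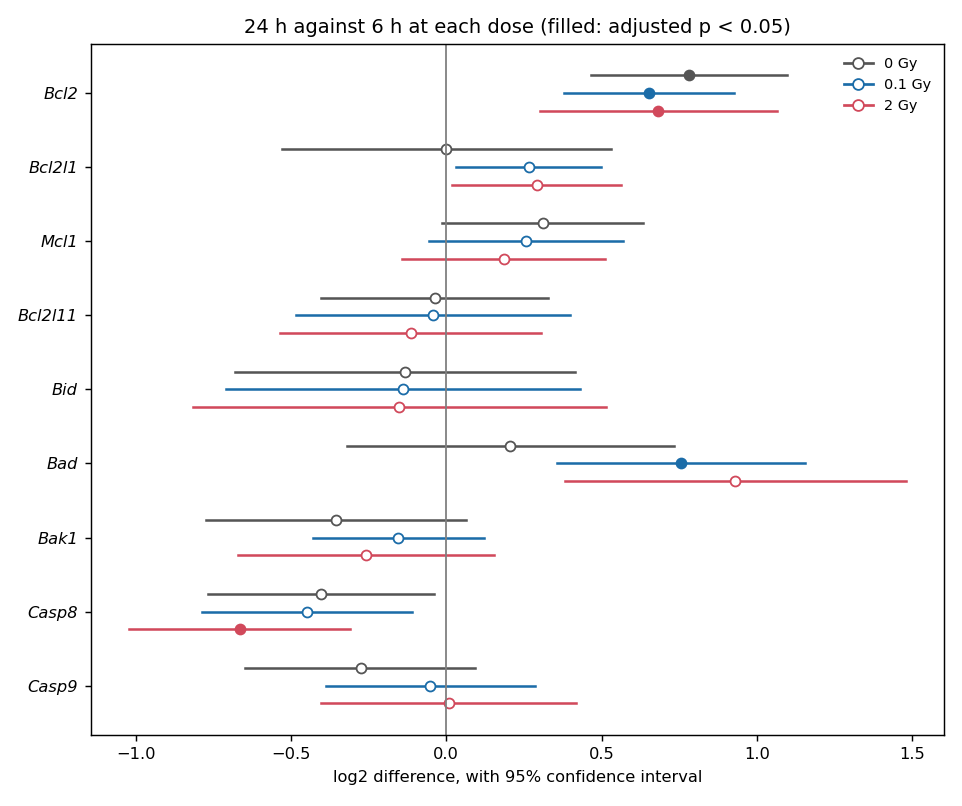
The log2 difference between 24 and 6 h (horizontal axis, points with 95% confidence intervals) is plotted for each gene at 0, 0.1 and 2 Gy, with filled points where the adjusted p was below 0.05. Bcl2 is filled at all 3 doses (0.78, 0.65 and 0.68), Bad at 0.1 Gy (0.76) and Casp8 at 2 Gy (-0.66).

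Bcl2l1 did not pass the unpaired test in any comparison of time. Its mock-irradiated libraries held 169.5, 187.2, 157.8 and 194.8 CPM at 6 h and 150.2, 128.5, 285.8 and 154.2 CPM at 24 h. Replicate 3 at 24 h stood far above the other libraries, and the log2 difference of 0.00 became -0.31 without it (adjusted p = 0.117 by edgeR). After 2 Gy the libraries held 202.9, 174.6, 190.7 and 165.9 CPM at 6 h and 226.5, 206.6, 251.2 and 221.3 CPM at 24 h, without overlap, but the log2 difference of 0.29 was not called (adjusted p = 0.185 by edgeR). After 0.1 Gy the log2 difference was 0.26 (adjusted p = 0.141 by edgeR), and with the replicate block and the GC and length correction it was 0.28 and was called (adjusted p = 0.0188 by edgeR).

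Mcl1 overlapped between the times at every dose. Group means were 242.4 ± 22.1, 245.2 ± 24.0 and 261.7 ± 30.4 CPM at 6 h and 303.9 ± 45.1, 296.8 ± 45.2 and 299.2 ± 37.6 CPM at 24 h. Its log2 differences of 0.31, 0.26 and 0.18 had adjusted p-values of 0.223, 0.279 and 0.499 in edgeR's test, and leaving out single libraries gave 0.25 to 0.40, 0.14 to 0.33 and 0.12 to 0.28. Those at 0 and 0.1 Gy were called with the block and the GC and length correction, at 0.34 and 0.28 (adjusted p = 0.0447 and 0.0212 by edgeR). That fit called 4, 5 and 4 of the 9 genes at 0, 0.1 and 2 Gy, against 26.6%, 36.2% and 28.8% of all genes.

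Bad encodes a BH3-only protein that binds BCL2 and BCL-XL and is inactivated by phosphorylation. After 0.1 Gy it held 17.0, 17.1, 16.01 and 18.4 CPM at 6 h and 20.3, 26.8, 36.8 and 33.3 CPM at 24 h. The groups did not overlap, and the log2 difference was 0.76 (0.36 to 1.16, adjusted p = 0.0309 by edgeR). This call was lost without replicate 1, 3 or 4 at 6 h or replicate 3 or 4 at 24 h, with log2 differences of 0.64 to 0.79 and adjusted p-values that ranged over all alternatives from 0.000187 to 0.0963 in edgeR, DESeq2 or limma.

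After 2 Gy, Bad held 19.3, 16.5, 15.9 and 14.8 CPM at 6 h and 24.4, 25.8, 50.3 and 27.4 CPM at 24 h. These groups did not overlap either, and replicate 3 at 24 h was the highest of the 24 libraries. The log2 difference was 0.93 (0.38 to 1.48) and missed the threshold (adjusted p = 0.0527 by edgeR). With the replicate block it was 0.87 (adjusted p = 0.0213 by edgeR), and over all alternatives the adjusted p ranged from 0.000823 to 0.143. That fit called 19.2% of all genes at 2 Gy and 25.7% at 0.1 Gy. Exons of Gpr137 on the opposite strand share 524 bases with those of Bad, in an annotation whose ends for Bad differ from those in the count tables. Gpr137 had a difference of 0.55 without the block (adjusted p = 0.135 by edgeR) and 0.54 with it (adjusted p = 0.0424 by edgeR).

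In mock-irradiated cells Bad held 18.6, 17.9, 16.4 and 23.9 CPM at 6 h and 19.8, 15.5, 32.7 and 21.7 CPM at 24 h. The groups overlapped, and the log2 difference was 0.21 (adjusted p = 0.634 by edgeR). It became -0.03 without replicate 3 at 24 h, and 0.46 with the block and the GC and length correction, which called it (adjusted p = 0.0233 by edgeR).

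The other BH3-only genes, Bcl2l11, whose protein BIM binds all prosurvival members, and Bid, were not called at any dose. Bcl2l11 held 20 ± 2.86, 20.1 ± 4.48 and 21.4 ± 3.36 CPM at 6 h and 19.7 ± 2.52, 19.8 ± 3.25 and 19.95 ± 3.49 CPM at 24 h. Bid held 16.4 ± 4.34, 16.9 ± 4.63 and 16.6 ± 4.71 CPM at 6 h and 15.1 ± 3.01, 15.5 ± 3.88 and 15.03 ± 4.45 CPM at 24 h. Exons of Bid share 628 bases with those of the antisense gene Bcl2l13, which averaged 46.9 to 53.3 CPM in the 6 groups. Whether the counts separated reads there by strand is not known. Together with Casp9 their log2 differences between the times lay between -0.28 and 0.01, and their 95% confidence intervals lay between -0.82 and 0.51.

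Bak1, the gene of the pore-forming effector BAK, held 77.1, 68.9, 75.8 and 86.4 CPM in mock-irradiated cells at 6 h and 53.6, 54.3, 86.6 and 49.3 CPM at 24 h. Every 24 h library lay below every 6 h library except replicate 3, which lay above them all. The log2 difference was -0.36 (adjusted p = 0.277 by edgeR), and without that 24 h library it was -0.57 (adjusted p = 0.0172 by edgeR). After 0.1 and 2 Gy the log2 differences were -0.15 and -0.26, and neither was called without the block. Leaving out single libraries gave -0.23 to -0.07 (without replicate 3 and 1 at 24 h) and -0.41 to -0.11 (without replicate 3 and 4 at 24 h). With the block and the GC and length correction the difference was -0.10 at 0 Gy and -0.37 at 2 Gy, and the latter was called (adjusted p = 0.0433 by edgeR). Exons of Bak1 share 437 bases with those of an antisense gene, Ggnbp1.

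Casp8, the initiator caspase of death receptors, held 46.1, 33.7, 42.2 and 45.4 CPM after 2 Gy at 6 h and 30.6, 22.1, 27.2 and 26.6 CPM at 24 h. The groups did not overlap, and the log2 difference was -0.66 (-1.02 to -0.31, adjusted p = 0.0403 by edgeR). The call was lost without replicate 1, 3 or 4 at 6 h or replicate 1, 2 or 4 at 24 h, with scaling by library size alone and with no filter on low counts, and over all alternatives the adjusted p of edgeR, DESeq2 or limma ranged from 0.000619 to 0.14.

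Casp8 was also lower on average at 24 h at the other doses. It held 43.9, 31.5, 47.8 and 38.7 CPM in mock-irradiated cells at 6 h and 35.5, 27.9, 28.2 and 32.2 CPM at 24 h. After 0.1 Gy it held 44.3, 31.98, 49.7 and 40.2 CPM at 6 h and 33.0, 25.5, 33.3 and 31.6 CPM at 24 h. The groups overlapped at both doses through replicate 2, and the log2 differences of -0.40 and -0.45 were not called (adjusted p = 0.163 and 0.0941 by edgeR). With the replicate block the difference at 0.1 Gy was -0.44 and was called (adjusted p = 0.0164 by edgeR), as it was without the block when replicate 2 was left out (-0.47). At 0 Gy it was called at -0.41 with the block and the GC and length correction (adjusted p = 0.0241 by edgeR). The summed level of the 12 microglia markers averaged 2040, 1960 and 1920 CPM at 6 h and 1600, 1770 and 1780 CPM at 24 h. Its part in the Casp8 difference was not tested.

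Casp9, the initiator caspase of the apoptosome, held 17.4 ± 2.26, 17.0 ± 2.72 and 17.0 ± 3.06 CPM at 6 h and 14.5 ± 1.76, 16.7 ± 1.65 and 17.2 ± 2.11 CPM at 24 h. Its groups overlapped throughout. The exons it shares with the antisense genes Cela2a and Ctrc span 94 bases each.

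The next question was how the 9 genes responded to dose at each time. In the unpaired test 0 of the 9 genes were called in any of the 6 dose comparisons, as were 0.0% of all genes in each. At an unadjusted p below 0.05, 0 of the 9 passed in any of the 6, against 24 to 570 of all genes. DESeq2's Wald test and limma voom also called 0 of the 9 in all 6, while DESeq2 called 93 of all genes for 2 Gy against 0 Gy at 24 h. Groups did not overlap for 0 of the 9 in any dose comparison, against 0.375% (0.1 Gy against 0 Gy), 1.17% (2 Gy against 0 Gy) and 0.756% (2 Gy against 0.1 Gy) of all genes at 6 h and 1.11%, 2.95% and 1.24% at 24 h.

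At 6 h the differences were small. Bad had the largest, -0.17 after 0.1 Gy and -0.21 after 2 Gy against 0 Gy, followed by Bak1 after 0.1 Gy (-0.11) and Mcl1 after 2 Gy (0.11). This order rested on single libraries. Without the mock-irradiated replicate 4, Bad was -0.04 and -0.08 and Bak1 after 0.1 Gy was -0.05, and without replicate 2 after 2 Gy, Mcl1 was 0.03. The other 7 genes lay between -0.05 and 0.04 after 0.1 Gy and between -0.09 and 0.10 after 2 Gy. The widest 95% confidence intervals were those of Bid, from -0.55 to 0.63 and from -0.61 to 0.64, and that of Bcl2l1 ran from -0.29 to 0.19 after 0.1 Gy. With the replicate block all 9 intervals lay between -0.35 and 0.26 after 0.1 Gy and between -0.49 and 0.30 after 2 Gy. The GC and length correction with the block brought Bad to -0.07 and -0.09 and Bak1 after 0.1 Gy to -0.03. Between 2 and 0.1 Gy at 6 h all 9 genes lay between -0.04 and 0.10.

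Libraries of the same replicate number deviated together within a time, and a blocked fit, which compares libraries within their number, was therefore set beside the unpaired one. With the block 0 of the 9 genes were called in any comparison at 6 h, where 0.0% (0.1 Gy against 0 Gy), 0.0% (2 Gy against 0 Gy) and 0.0553% (2 Gy against 0.1 Gy) of all genes were called. At an unadjusted p below 0.05 the block passed 0 of the 9 in each of these, against 3.97%, 6.88% and 4.68% of all genes. At 24 h it called 0 of the 9 after 0.1 Gy, where 6.84% of all genes were called, and 1 of the 9 after 2 Gy, where 13.2% were called. Between 2 and 0.1 Gy at 24 h it called 0 of the 9 and 0.0% of all genes. At an unadjusted p below 0.05 it passed 1, 3 and 1 of the 9 in these 3 comparisons, against 28.1%, 32.3% and 4.94% of all genes. The block in DESeq2 called 1, 2 and 0 of the 9, against 14.7%, 17.0% and 0.68% of all genes tested.

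Bad was the gene called with the block. At 24 h its level went from 19.8 to 24.4, from 15.5 to 25.8, from 32.7 to 50.3 and from 21.7 to 27.4 CPM between mock-irradiated and 2 Gy libraries of replicates 1 to 4. It was thus higher in 4 of 4 pairs, whereas the groups overlapped through the mock-irradiated replicate 3 alone. The log2 difference was 0.51 in both fits, with a 95% confidence interval of -0.15 to 1.18 without the block and 0.26 to 0.75 with it (adjusted p = 0.94 and 0.0227 by edgeR). Leaving out single libraries without the block gave 0.23 (without replicate 3 after 2 Gy) to 0.74 (without replicate 3 after 0 Gy). With the block and the GC and length correction it was 0.22 (adjusted p = 0.18 by edgeR), and the call with the block was also lost without replicate 1, 2 or 4 (adjusted p = 0.0694 to 0.146 by edgeR). The log2 difference of all genes in this comparison correlated with their GC content across genes at r = 0.56. In the other comparisons this r ran from -0.373 (2 Gy against 0 Gy at 6 h) to 0.587 (0.1 Gy against 0 Gy at 24 h). GC content was taken from the longest annotated transcript of each gene, and was 57.1% for Bad.

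Whether the counts separated reads of Bad from those of Gpr137 over shared exons is not known. Gpr137 averaged 41.9 CPM in mock-irradiated and 57.9 CPM in 2 Gy libraries at 24 h, and with the block its log2 difference was 0.51 (adjusted p = 0.02 by edgeR). Its part in the Bad differences was not tested.

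After 0.1 Gy at 24 h, Bad held 20.3, 26.8, 36.8 and 33.3 CPM and was again higher than the mock-irradiated library of its number in 4 of 4 pairs. The log2 difference was 0.38 without the block (-0.21 to 0.96) and 0.39 with it (adjusted p = 0.0721 by edgeR). With the block in DESeq2 it was 0.40 and was called (adjusted p = 0.0385 by DESeq2), in a fit that called 14.7% of all genes. Without the block it was 0.23 when the mock-irradiated replicate 2 was left out and 0.61 when the mock-irradiated replicate 3 was. With the block and the GC and length correction it was 0.15 (adjusted p = 0.408 by edgeR). In the fit with the block that left out replicate 3 it was 0.48 and was called (adjusted p = 0.0198 by edgeR), as it was without replicate 1 at 0.52 (adjusted p = 0.0292 by edgeR). These fits called 23.2% and 7.18% of all genes.

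**Figure D4:**
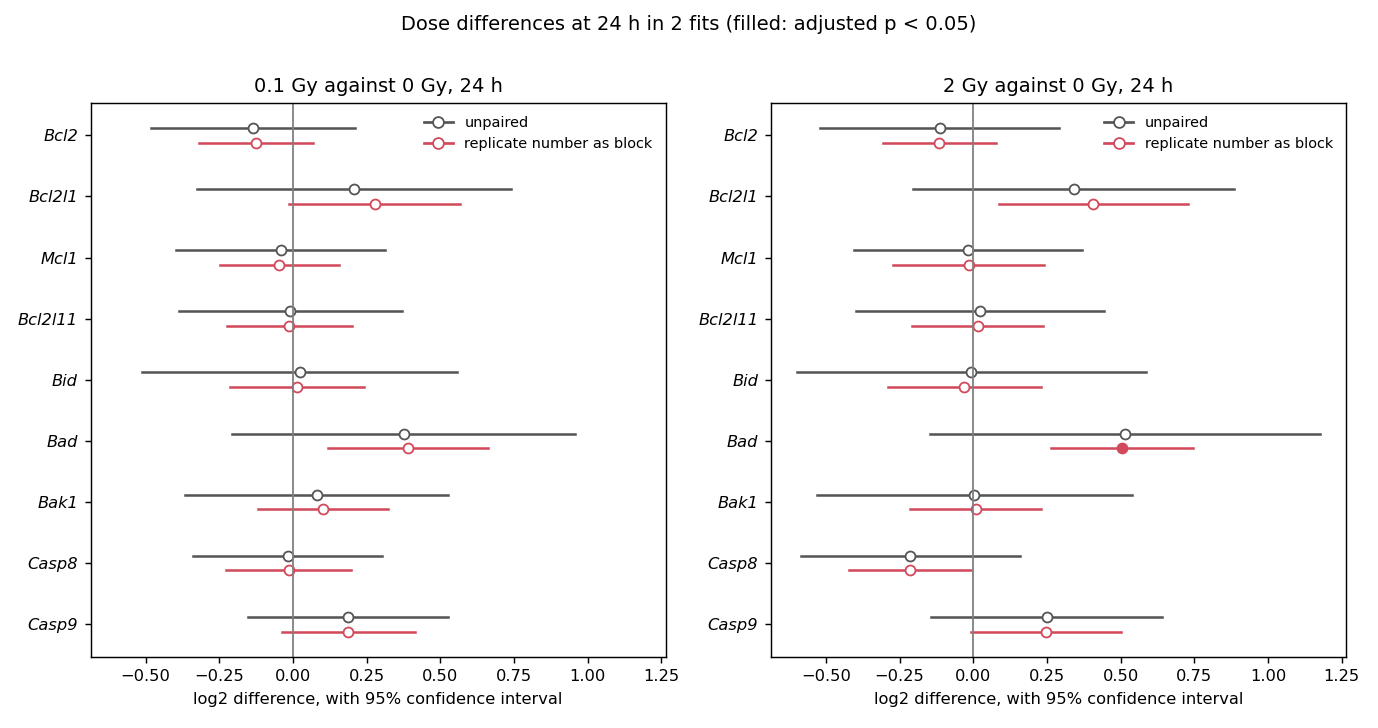
The log2 difference of each gene at 24 h (horizontal axis, points with 95% confidence intervals) is plotted for 0.1 Gy (left) and 2 Gy (right) against 0 Gy, unpaired and with the replicate block, with filled points where the adjusted p was below 0.05. Bad after 2 Gy with the block (0.51) is the filled point.

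Bcl2l1 at 24 h turned on a single library. Its mock-irradiated libraries at 150.2, 128.5 and 154.2 CPM lay below all those after 0.1 Gy (189.3, 205.6, 224.2 and 217.3 CPM) and after 2 Gy (226.5, 206.6, 251.2 and 221.3 CPM), whereas replicate 3 at 285.8 CPM lay above them all. The log2 difference after 2 Gy was 0.34 (-0.20 to 0.89) without the block and 0.41 with it (adjusted p = 0.94 and 0.0849 by edgeR). With the block in DESeq2 it was 0.40 and was called (adjusted p = 0.0409 by DESeq2), in a fit that called 17.0% of all genes. With the block and the GC and length correction it was 0.24 (adjusted p = 0.258 by edgeR), and with the block and without replicate 3 it was 0.61 (adjusted p = 5.33e-06 by edgeR). After 0.1 Gy it was 0.21 without the block and 0.28 with it, 0.12 with the GC and length correction added (adjusted p = 0.539 by edgeR), and 0.50 with the block and without replicate 3 (adjusted p = 0.00497 by edgeR).

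The caspases also gained calls once replicate 3 was left out, in a fit that called 4 of the 9 genes and 33.1% of all genes after 2 Gy. Casp8 was lower after 2 Gy than after 0 Gy at 24 h in 4 of 4 pairs, with a log2 difference of -0.21 in both fits, which was not called (adjusted p = 0.144 with the block, by edgeR). With the block and without replicate 3 it was -0.26 (adjusted p = 0.0226 by edgeR). Casp9 had a log2 difference of 0.25 in both fits (adjusted p = 0.164 with the block, by edgeR), and of 0.35 with the block and without replicate 3 (adjusted p = 0.0136 by edgeR). Leaving out single libraries without the block gave 0.15 (without replicate 1 after 2 Gy) to 0.31 for Casp9 and -0.30 to -0.14 (without replicate 2 after 2 Gy) for Casp8. After 0.1 Gy the log2 difference of Casp9 was 0.19 without the block and 0.12 with the block and the GC and length correction, and Casp9 was higher in 4 of 4 pairs. It was 0.11 when the mock-irradiated replicate 2 was left out. Between 2 and 0.1 Gy at 24 h the log2 difference of Casp8 was -0.20, and the other 8 genes lay between -0.08 and 0.13.

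Without the block the log2 differences of Mcl1, Bcl2l11 and Bid after 2 Gy at 24 h lay between -0.02 and 0.02. That of Bak1 was 0.00 without the block and 0.01 with it, and its sign varied with the setting. After the GC and length correction of the blocked fit it was -0.26 (adjusted p = 0.0925 by edgeR), and it was -0.14 without replicate 3 after 2 Gy and 0.21 without replicate 3 after 0 Gy. The longest annotated transcript of Bak1 has a GC content of 57.1%, as that of Bad does. In all, 3 of the 9 genes differed the same way in 4 of 4 pairs after 0.1 Gy and 3 of 9 after 2 Gy, against 32.5% and 41.9% of all genes.

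Whether the response to 2 Gy differed between the times was tested as an interaction over 16 libraries. Without the block 0 of the 9 genes and 0.0% of all genes were called, and at an unadjusted p below 0.05 0 of the 9 and 827 of all genes passed, while DESeq2's Wald test called 0 of the 9 and limma voom 0 of the 9. Bad had the largest interaction, 0.73 on the log2 scale (-0.02 to 1.47, adjusted p = 0.819 by edgeR), and the other 8 genes lay between -0.25 and 0.30. At 24 h, leaving out replicate 3 after 2 Gy brought that of Bad to 0.43 and leaving out the mock-irradiated replicate 3 brought it to 0.96. With the block 1 of the 9 was called, against 6.78% of all genes, and that gene was Bad at 0.71 (adjusted p = 0.0408 by edgeR). Correction for GC content and length left 0.32 (adjusted p = 0.139 by edgeR), and Gpr137 on the opposite strand had an interaction of 0.75 with the block (adjusted p = 0.043 by edgeR).

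Several of the 9 genes differed between replicate numbers in the same way in every group. In all 6 groups replicate 2 was the lowest library for Bid, Casp8 and Casp9 and the highest for Mcl1. It was the lowest library in all 6 groups for 12.2% of all genes and the highest for 10.8%, so that the 3 of 9 and 1 of 9 counts stand beside a broad pattern. Bid in replicate 2 was 0.501 to 0.646 times the mean of the other libraries of its group, Casp8 0.715 to 0.871 times and Casp9 0.682 to 0.861 times. Bcl2l11 was lowest in replicate 2 in 5 groups, at 0.601 to 0.811 times the others.

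Bid held 10.2, 10.5 and 9.76 CPM in replicate 2 at 6 h and 10.7, 9.91 and 8.61 CPM at 24 h, after 0, 0.1 and 2 Gy. No other library held less than 15.8 CPM, so that replicate 2 was separate from the rest at every dose and time. Mcl1 went the other way, at 1.14 to 1.31 times the other libraries. The summed microglia markers in replicate 2 were 0.127 to 0.159 times the mean of the others, and all 12 were lowest in replicate 2 in all 6 groups. Their part in the levels of Bid, Casp8, Casp9, Bcl2l11 and Mcl1 was not tested.

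**Figure D5:**
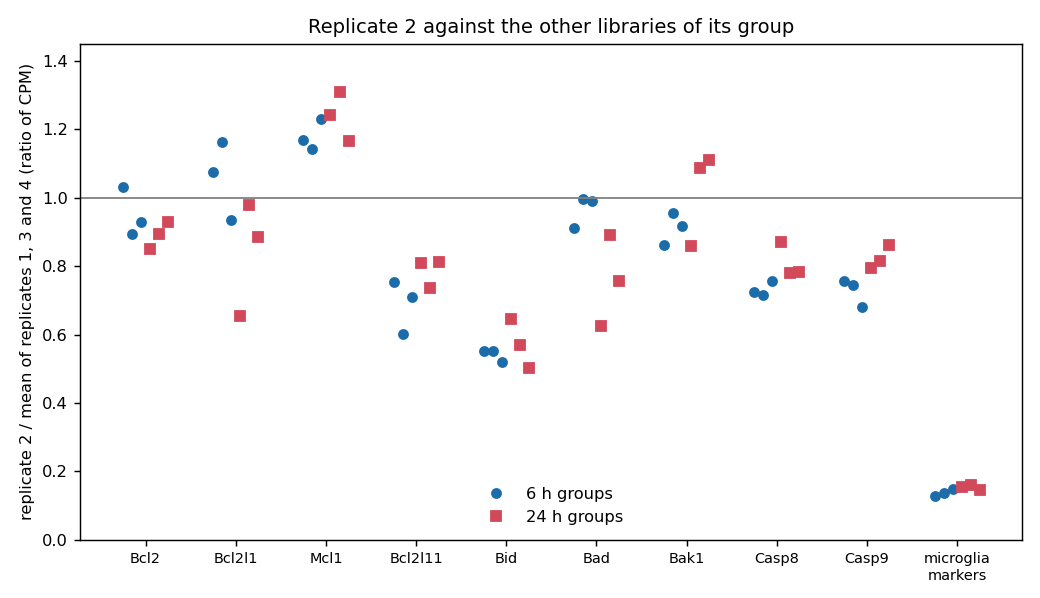
For each gene and for the summed microglia markers, the level in replicate 2 divided by the mean of the other 3 libraries of its group (a ratio of CPM, vertical axis) is plotted for the 6 groups. Bid lies at 0.501 to 0.646 and the microglia markers at 0.127 to 0.159, whereas Mcl1 lies at 1.14 to 1.31.

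The genes whose log2 CPM over the 24 libraries was most like that of each member, among 17353 genes, differed from member to member. For Bcl2 it was Ttc33 (Pearson's r = 0.967, Spearman's rho = 0.924), for Bcl2l1 Scap (0.907 and 0.948) and for Mcl1 Tef (0.914 and 0.912). For Bcl2l11 it was Tlr8 (0.943 and 0.847), for Bid Lgals9 (0.977 and 0.912) and for Bad Med25 (0.969 and 0.917). For Bak1 it was Prmt1 (0.95 and 0.939), for Casp8 Nfkbiz (0.944 and 0.921) and for Casp9 H6pd (0.898 and 0.838). These libraries share replicate numbers, microglia RNA and GC-related differences, and the values are a description of them.

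The rest of the pathway was followed in 6 lists of 60 genes, of which 53 were tested in each dose and time comparison: other BCL2 family members, other caspases, apoptosome and mitochondrial release, inhibitor of apoptosis proteins, death receptor signalling and caspase substrates. In the unpaired fit 0 of the 53 were called in any dose comparison. With the block at 24 h, 2 rose and 2 fell after 0.1 Gy, a share close to the 6.84% of all genes called. Those that rose were Bcl2l12 (0.47, adjusted p = 0.049 by edgeR) and the receptor adaptor Tradd (0.44, adjusted p = 0.0447), and those that fell were Apaf1, the scaffold on which caspase-9 assembles (-0.34, adjusted p = 0.0485), and Xiap, an inhibitor of caspase-9 and of executioner caspases (-0.41, adjusted p = 0.0356). After 2 Gy 2 fell and 0 rose, beside 13.2% of all genes called: Casp2, an initiator caspase (-0.43, adjusted p = 0.0316), and Birc6, an inhibitor of apoptosis protein (-0.50, adjusted p = 0.0298).

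Between 24 and 6 h in the unpaired fit, 1 of the 53 fell at 0 Gy, 2 rose at 0.1 Gy and 1 rose at 2 Gy, beside 6.7%, 9.9% and 6.95% of all genes called. The gene that fell was Htra2, a mitochondrial protease (-0.68, adjusted p = 0.0313 by edgeR). At 0.1 Gy those that rose were Bnip3 (0.49, adjusted p = 0.0303) and Acin1, a caspase substrate of the nucleus (0.68, adjusted p = 0.0365), and at 2 Gy it was Acin1 again (0.69, adjusted p = 0.0291). With the block 5 rose and 7 fell at 0.1 Gy and 3 rose and 7 fell at 2 Gy, beside 25.7% and 19.2% of all genes called. At 0 Gy, where replicate 3 did not pair, 1 rose and 5 fell with the block, beside 15.3% of all genes called. Of the 7 inhibitor of apoptosis genes tested, 4 fell with the block at 0.1 and at 2 Gy and 0 rose, while 0 were called with it at 0 Gy, where their median was -0.37, and 0 without it at any dose. Whether this differed between doses was not tested. They were Birc3 (-0.82 and -0.99, adjusted p = 0.00754 and 0.0109 by edgeR) and the related copies Naip2, Naip5 and Naip6, between which reads may be split. These names were chosen after their values were seen. The summed microglia markers averaged 2040, 1960 and 1920 CPM at 6 h and 1600, 1770 and 1780 CPM at 24 h, after 0, 0.1 and 2 Gy. Their part in the differences of these inhibitor genes was not tested.

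For comparison, 7 of 16 listed p53 targets rose with the block after 2 Gy at 24 h and 0 fell, beside the 13.2% of all genes called there and 0 of 16 called without the block. Among them was Bax, the other pore-forming effector (0.82, adjusted p = 0.00741 by edgeR), while Bad was the 1 of the 9 genes called there. With the block after 0.1 Gy at 24 h, 3 of the 16 rose and 2 fell, beside 6.84% of all genes called. After 2 Gy at 6 h 0 of the 16 were called with it. These counts are without the GC and length correction. Whether the 9 genes differed from the p53 targets was not tested.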

How the data were processed

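Poly(A) RNA of 24 libraries was sequenced as paired reads. The authors' sequencing provider trimmed and mapped the reads to mm10 (GRCm38) and counted them per gene, and the deposited values are raw counts. The aligner, the counter and its strand setting are not given in the sources used here. The labels call the 4 libraries of a group biological repeats, and cells were isolated anew for every experiment. The 9 genes and all lists were chosen with earlier results of these data known.

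Genes with low counts were removed with edgeR's filterByExpr, library sizes were scaled by TMM, and pairs of groups were compared with the quasi-likelihood test of edgeR 4.0.16 (R 4.3.3) without a replicate block, over all genes with Benjamini-Hochberg adjustment and a threshold of 0.05. Levels are CPM on TMM-scaled sizes, and log2 CPM uses a prior count of 2. CPM per kb divides by exon length. The replicate block followed from a check of pairing: deviations from the group mean of same-numbered libraries correlated at r = 0.54 to 0.927 within a time. Between times they correlated at 0.255 or more at 0.1 and 2 Gy, but at 0.0623 for replicate 3 at 0 Gy. Replicate 3 at 24 h also correlated more with a 6 h library of another number, at 0.561 at 0 Gy and 0.408 (against 0.388) at 0.1 Gy. This limits every blocked value between times at 0 and 0.1 Gy. Alternatives were DESeq2 1.42.0, limma 3.58.1 voom, other scalings and filters, 1 fit of all libraries, a minimum log2 fold change of 1, the block with a GC and length correction (splines with 5 degrees of freedom), and leaving out each library. The block in DESeq2, the block without each replicate number and the unpaired fit without replicate 2 were added after seeing the data. Genes named in the text are the 9 members, up to 3 genes per list called in a dose comparison, the gene most correlated with each member and, chosen after their values were seen, the 3 listed genes called between the times without the block and the 4 inhibitor of apoptosis genes called with it. The test was checked on simulated counts. Depth was 14742855 to 38194800 counts, which sets the counting error but not the spread between libraries, and no 2 libraries agreed within sampling noise (lowest chi-square per degree of freedom 25.9). Upstream sequences are from RefSeq (GRCm38.p6), and all 9 genes matched.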

Additional observations from a re-analysis of the deposited data

Results flagged for a closer look

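A single library stood away from the other 3 of its group in 6 of the 54 gene and group combinations examined (Dixon's test at the 95% level, of which chance gives about 1 in 20). Replicate 3 of the mock-irradiated 24 h group was the high library for Bcl2l1 (285.8 CPM, nearest 154.2) and for Bak1 (86.56 CPM, nearest 54.3). Replicate 3 of the 2 Gy, 24 h group was the high library for Bad (50.3 CPM, nearest 27.35). Replicate 2 was the low library for Bcl2l11 at 6 h after 0.1 Gy (13.43 CPM, nearest 21.59) and after 2 Gy (16.43 CPM, nearest 22.47), and for Casp9 in mock-irradiated cells at 6 h (14.02 CPM, nearest 18.13).

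The response of Bad to 2 Gy differed between 24 and 6 h with the replicate block, by 0.71 on the log2 scale (adjusted p = 0.0408, edgeR, Benjamini-Hochberg adjusted over all genes). Its adjusted p ranged from 0.00756 to 1.0 over the alternatives.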

How the results depend on the processing

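For single genes, 34 log2 differences were recomputed under the alternatives, giving 714 values, of which 631 kept their direction and their side of the threshold, 35 gained a call, 28 lost one and 20 changed sign. Between 24 and 6 h at 0 Gy, Bcl2l1, at 0.00, was -0.064 with limma voom, -0.07 with the replicate block and -0.057 with the block in DESeq2, and leaving out single libraries gave -0.31 to 0.18. Bad gave -0.026 to 0.369 on leaving out single libraries. At 24 h against 0 Gy, Bcl2 turned to 0.059 (0.1 Gy) and 0.086 (2 Gy) with the block and the GC and length correction. Bak1 after 2 Gy, at 0.00, was -0.263 in that fit, -0.002 with DESeq2's size factors, -0.001 with at least 10 counts in every library, -0.004 with DESeq2, -0.001 in the fit of all 24 libraries and -0.088 with the block without replicate 2, and leaving out single libraries gave -0.139 to 0.209. The cause of these shifts was not tested.

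The number of the 9 genes called changed as follows. For 0.1 Gy against 0 Gy at 24 h (0 unpaired) it was 1 with the block in DESeq2, 1 with the block without replicate 1 and 2 with the block without replicate 3. For 2 Gy against 0 Gy at 24 h (0 unpaired) it was 1 with the block, 2 with the block in DESeq2 and 4 with the block without replicate 3. The interaction gave 1 with the block and 1 with the block in DESeq2. Between 24 and 6 h (1, 2 and 2 unpaired at 0, 0.1 and 2 Gy) it was 4, 5 and 4 with the block and a GC and length correction, and 0 at each dose when a log2 fold change of at least 1 was required. At 2 Gy it was also 3 with DESeq2 and 3 with the fit of all 24 libraries, neither of which has a block, and the block in DESeq2 gave 3 at 0.1 and at 2 Gy. At 2 Gy it was 0 with no filter on low counts, and leaving out libraries gave 0 to 2, 0 to 3 and 0 to 3. The block between times gave 1, 3 and 3, though replicate 3 did not pair at 0 Gy and paired no better than another number at 0.1 Gy. The block changed no call of the 9 genes other than those of Casp8 at 0.1 Gy and Bad at 2 Gy.

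Over all genes, the block called 1107 for 0.1 Gy and 2100 for 2 Gy against 0 Gy at 24 h, 9 for 2 Gy against 0.1 Gy at 6 h and 1143 in the interaction, against 0 in each without it. With the GC and length correction these were 298, 564, 110 and 402. Between the times the block called 2428, 4181 and 3072 genes, against 1064, 1609 and 1112 without it, and the fit of all 24 libraries called 2488, 2150 and 2543. DESeq2 without the block called 1969, 2535 and 2108, and with it 3063, 4274 and 3422, the block with the GC and length correction called 4219, 5873 and 4598, and no filter on low counts left 730 at 2 Gy. The split of higher and lower calls was 743 to 866 at 0.1 Gy and 484 to 628 at 2 Gy, and 1034 to 654 and 588 to 466 with scaling by library size alone. For dose, the fit of all 24 libraries called 108 and DESeq2 93 for 2 Gy against 0 Gy at 24 h, and 15 and 39 for 2 Gy against 0.1 Gy at 24 h, with at most 7 by DESeq2 elsewhere. The block in DESeq2 called 59 for 2 Gy against 0 Gy at 6 h, where the GC-corrected block called 115, and 49 to 2455 in the other comparisons except 0.1 Gy against 0 Gy at 6 h, where it called 0. Of the limits, 4 libraries a group leave wide intervals without the block, and 1 library decides several differences at 24 h. Whether the counts separated reads on opposite strands is not known.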
